A study of Mus musculus with 3 samples.

Results

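The 6 genes Pnpla2, Lipe, Mgll, Abhd5, G0s2 and Pnpla3 encode the enzymes that break down stored fat and the proteins that switch the first of these enzymes on or off. They were chosen by name, as every array probe that is not a control and carries a member's symbol, which gave 12 probes of 6 genes among 56602 probes of 37324 genes. Gene expression was measured with 1 Agilent 1-colour microarray for each of 3 cell fractions of mouse epididymal fat, so differences between the fractions lack replicates, no test was made, and what can be said is limited by having 3 arrays. The fat came from male C57/BL mice aged 20 weeks according to the labels, was digested with collagenase and was spun for 1 s at 9 g to separate floating cells from the lower phase, the stromal vascular cells (SVC). A further spin of the floating cells, at 226 g for 3 min, left mature white adipocytes (MWA) on top and the small proliferative adipocytes (SPA) as sediment. SVC and SPA were grown in DMEM to 90% confluence before RNA was taken, whereas no culture is described for MWA, and the titles of the samples give MWA another date than SVC and SPA. Maturity, culture and date therefore cannot be told apart between MWA and the other fractions. The labels do not say how many mice stand behind each array, and all 3 fractions are unmodified and untreated.

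Lipolysis is the stepwise release of fatty acids from the triglyceride of the lipid droplet. PNPLA2, also called ATGL, cuts the first fatty acid from triglyceride, hormone-sensitive lipase (the product of Lipe) acts mainly on the resulting diglyceride, and monoglyceride lipase (Mgll) releases the last fatty acid together with glycerol. ABHD5, also called CGI-58, is the coactivator of PNPLA2, G0S2 is its inhibitor, and PNPLA3 is the close relative of PNPLA2 that is best known from liver.

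The level of a probe is given here as the log2 of its processed signal over that of the 75th percentile of the same array, which was a signal of 430 (SVC), 439 (SPA) and 366 (MWA). A level says nothing about the rank of genes, since probes differ in brightness, so only the same probe was set side by side across the arrays. The sole errors at hand are those within an array. Feature Extraction, the scanner software, gave the brighter member spots an error of 10%. That is 0.14 on the log2 scale for a level and 0.20 for a ratio of 2 arrays. The 10% is a setting of the software's error model and not a spread measured on these arrays. Probes spotted 10 times had a median SD, on the log2 scale, of 0.04 for SVC and SPA and 0.05 for MWA. A probe that the software did not mark as well above background has only a bound, "at least" so many fold, set by the higher of its own level and that of the lowest signal on that array that was well above background (13.9, 12.5 and 10.3 for SVC, SPA and MWA). No member spot was saturated or marked as outlying. A member gene is said to rise or fall only where its ratio exceeded these errors, which leave out the spread between mice and cultures. For other genes no error of the ratio was computed, and such words give the direction of the ratio alone.

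Because the results for Lipe and Mgll turn on which probe is read, the first 30 of the 60 bases of their probes are shown, 5′ to 3′ on the strand of the transcript, with no capitals since no base is singled out. The names of the probes are those of the array, and positions are those of its annotation in mm9.
Lipe, A_51_P435363: gaagaagctgacaataaaggacttgagcaa
Lipe, A_55_P2728901: atcctggaaattctgctgcttccccaggca
Lipe, A_51_P174133: tctccagagtggaagtcattttttgactgt
Mgll, A_55_P2063316: aattactaaagaagccaatgtgcactacag
Mgll, A_55_P2063312: tatgatgagctggctcatatgttgaagggg
The Lipe probes lie on the minus strand of chromosome 7. A_51_P435363 lies at 26165828 to 26165887 and is annotated to 2 RefSeq transcripts of Lipe. A_55_P2728901 lies at 26167986 to 26168045 and is annotated to a cDNA clone alone, and A_51_P174133, at 26182789 to 26182848, is annotated to an Ensembl transcript alone. The Mgll probes lie on the plus strand of chromosome 6, at 88778292 to 88778351 for A_55_P2063316, annotated to 3 RefSeq transcripts, and at 88714636 to 88714695 for A_55_P2063312, annotated to 1 other RefSeq transcript. Whether a probe lies in coding sequence, an untranslated region or an intron was not determined here.

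All 6 genes had their lowest level in SVC and their highest in MWA, read at the probe whose mean level was the highest for that gene, called its brightest probe here. The steps differed in size. In SPA over SVC, G0s2 and Pnpla3 (2 of 6 genes) passed 5-fold upward and 0 of 6 downward. Of the 22808 genes well above background on at least 1 of these arrays, 0.32% passed upward and 0.351% downward. In MWA over SPA, 5 of 6 passed upward, all but Abhd5, and 0 downward, against 5.47% and 3.97% of 24101 genes. In MWA over SVC, which shares its arrays with the other comparisons, the same 5 genes passed upward and 0 downward, against 5.72% and 3.96% of 23596 genes. At a limit of 2-fold, 4, 6 and 6 of the 6 genes passed upward in the same order of comparisons, against 3.89%, 15.7% and 17.2% of all genes. The median log2 ratio of the 6 genes was 1.89 in SPA over SVC and 3.96 in MWA over SPA, beside 0.05 and -0.08 over all genes measured on both arrays. The limit of 5-fold follows the study. The count in SPA over SVC depends on the processing. The normexp model estimates the background of each array from all its spots, and an offset of 50 was added to every signal. With it, 0 of 6 genes reached 5-fold in SPA over SVC. The offset by itself shrinks ratios of dim probes, and its part in that count was not separated from that of the background estimate.

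**Figure D1:**
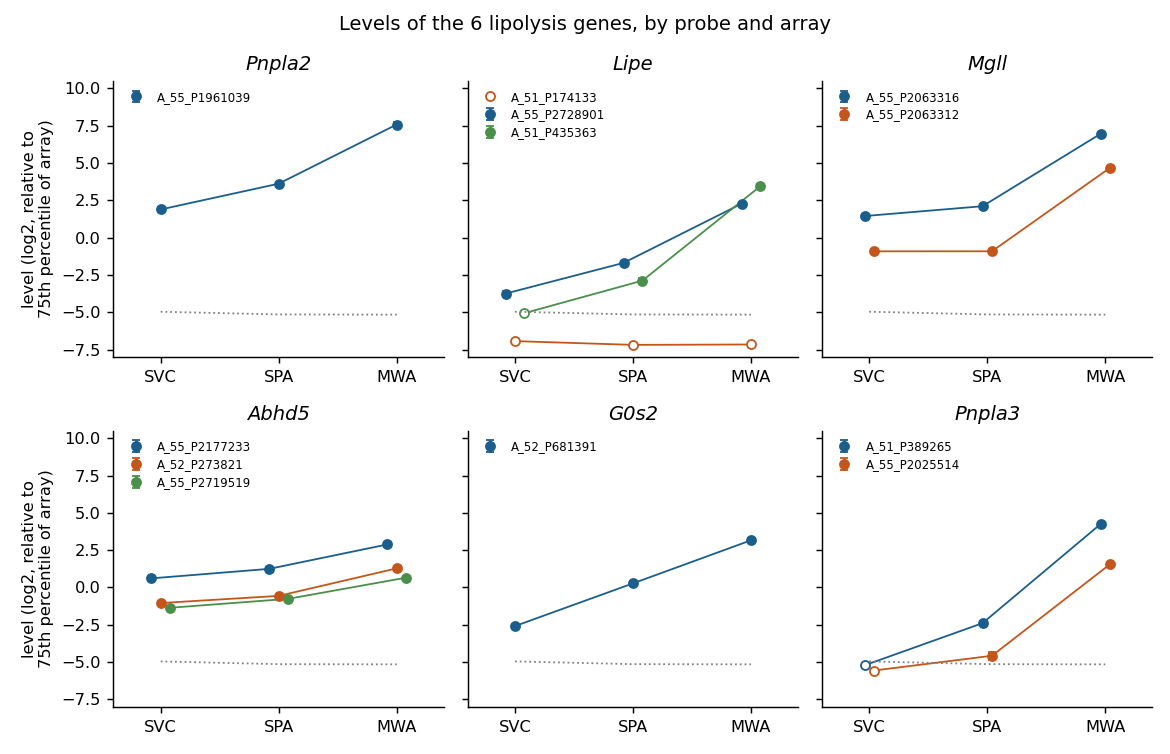
Level of each probe of the 6 genes (log2 scale, relative to the array's 75th percentile) in SVC, SPA and MWA, 1 array each; filled points are well above background and carry the error of the scanner software, open points are not, and the dotted line is the lowest level well above background. Each probe that was read on all arrays is highest in MWA, Abhd5 rises the least from SVC to MWA, and levels of different probes are not comparable with each other.

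Pnpla2, the lipase of the first step, had a single probe, on chromosome 7 at 148645928 to 148645987 of the plus strand in mm9. Its processed signal was 1602 for SVC, 5413 for SPA and 70338 for MWA, which are levels of 1.90, 3.62 and 7.59. The signal thus stood far above background in every fraction, including SVC. SPA exceeded SVC 3.31-fold (log2 ratio 1.73, error 0.20) and MWA exceeded SPA 15.6-fold (3.96, error 0.20). Of all genes with a ratio, 0.851% had as large a rise in SPA over SVC and 1.81% in MWA over SPA.

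Lipe, the hormone-sensitive lipase of the next step, was read at the clone probe A_55_P2728901 which is the brightest by that rule. There the signal was 32.2 for SVC, 137 for SPA and 1779 for MWA, all well above background, with levels of -3.74, -1.68 and 2.28. SPA exceeded SVC 4.16-fold (log2 ratio 2.06, error 0.24), and MWA exceeded SPA 15.6-fold (3.97, error 0.21). At the RefSeq probe A_51_P435363 the signal was 13.0 in SVC, which was not well above background, 60.0 in SPA and 4020 in MWA. That probe put SPA at least 4.23-fold above SVC and MWA 80.4-fold above SPA (log2 ratio 6.33, error 0.22). The probes therefore gave like values for SPA over SVC, a ratio in the first case and a bound in the second, whereas for MWA over SPA they differed by far more than their errors. The probe A_51_P174133 was not well above background on any array, with signals of 3.55, 3.04 and 2.58, and gave no ratio. The paper lists Lipe among the genes 5 times higher in SPA than in SVC. Here the measured ratio of 4.16-fold at the clone probe lay under 5-fold. The bound of 4.23-fold at the RefSeq probe is a lower limit, so whether that probe reached 5-fold cannot be told.

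Mgll, the lipase of the last step, was the gene with the most uneven rise. At A_55_P2063316 the signal was 1180 for SVC, 1902 for SPA and 45600 for MWA, with levels of 1.46, 2.11 and 6.96. SPA exceeded SVC 1.58-fold (log2 ratio 0.66, error 0.20), and MWA exceeded SPA 28.8-fold (4.85, error 0.20). At A_55_P2063312 the signal was 229 for SVC, 235 for SPA and 9411 for MWA. SVC and SPA did not differ there beyond the error (1.00-fold, log2 ratio 0.00, error 0.21), and MWA exceeded SPA 48.2-fold (5.59, error 0.20). Both probes placed nearly all of the rise of Mgll between SPA and MWA.

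Abhd5, the coactivator of PNPLA2, rose the least of the 6 genes from SPA to MWA and from SVC to MWA, and its 3 probes gave similar ratios. From SVC to SPA Mgll rose about as little at its brightest probe (log2 ratio 0.66). At its other probe it did not change beyond the error (0.00, error 0.21). At its brightest probe, A_55_P2177233 (chromosome 9, 122288857 to 122288916, plus strand, mm9), the signal was 657 for SVC, 1042 for SPA and 2698 for MWA, with levels of 0.61, 1.25 and 2.88. SPA exceeded SVC 1.56-fold (log2 ratio 0.64, error 0.20) and MWA exceeded SPA 3.11-fold (1.64, error 0.20). At the other probes, the log2 ratio was 0.48 and 0.60 in SPA over SVC, and 1.84 and 1.42 in MWA over SPA. For the whole span from SVC to MWA the probes gave 4.83-fold, 5.001-fold and 4.05-fold, which lie on either side of the 5-fold limit. A rise as large as that of Abhd5 was shared by 9.15% of genes in SPA over SVC and by 8.97% in MWA over SPA.

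G0s2, the inhibitor of PNPLA2, had a single probe, on chromosome 1 at 195098925 to 195098984 of the minus strand in mm9. Its signal was 71.7 for SVC, 531 for SPA and 3271 for MWA, with levels of -2.59, 0.27 and 3.16. SPA exceeded SVC 7.26-fold (log2 ratio 2.86, error 0.21) and MWA exceeded SPA 7.39-fold (2.89, error 0.20), so the steps were equal within the error. Only 0.171% of genes with a ratio rose as much in SPA over SVC. With the normexp correction this ratio was 2.18 on the log2 scale, under the limit of 5-fold. The ratio of MWA over SPA was then 2.76, so the equality of the steps depended on the correction.

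Pnpla3 had the largest ratio of the 6 genes in MWA over SPA. At its brighter probe, A_51_P389265 (chromosome 15, 84019823 to 84019882, plus strand, mm9), the signal was 11.6 for SVC, 83.7 for SPA and 6930 for MWA, and that in SVC was not well above background. SPA was at least 5.91-fold above SVC, and MWA exceeded SPA 99.3-fold (log2 ratio 6.63, error 0.21). At the dimmer probe, A_55_P2025514 (84016440 to 84016499), the signal was 9.11 in SVC, again not well above background, 18.4 in SPA and 1076 in MWA. The dimmer probe put SPA at least 1.30-fold above SVC and MWA 70.1-fold above SPA (log2 ratio 6.13, error 0.30). Its SPA level (-4.57) was near the lowest well above background (-5.14), which limits that fold. The bound for SPA over SVC thus passed 5-fold at the brighter probe alone, while both probes gave MWA over SPA far beyond it. The normexp correction gave a log2 ratio of 1.05 for SPA over SVC.

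**Figure D2:**
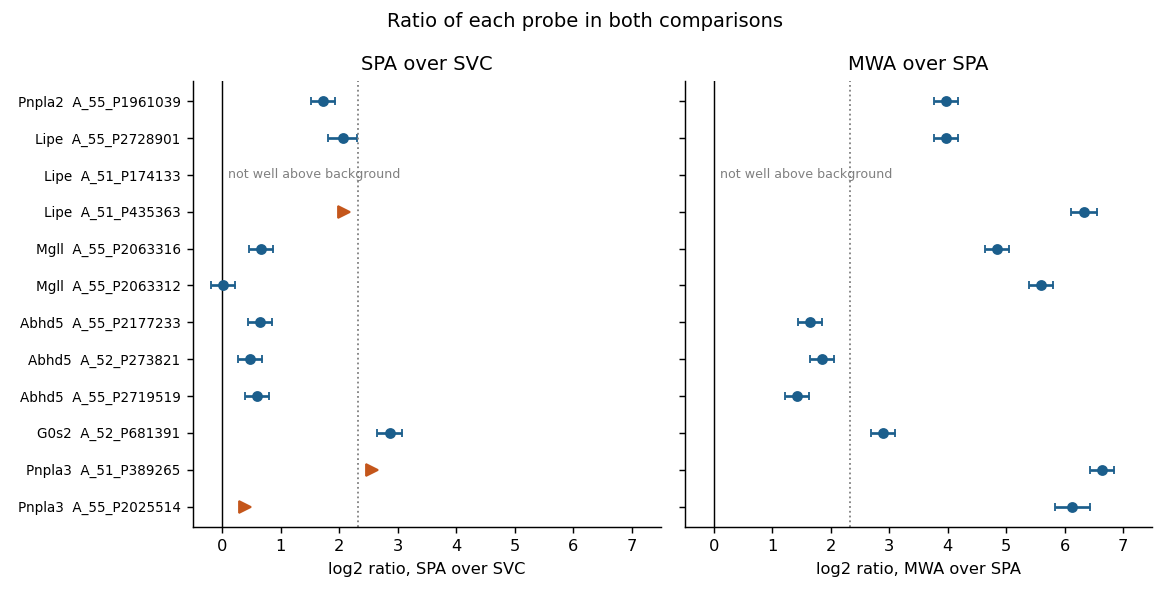
Log2 ratio of the 11 of 12 probes that gave a value in SPA over SVC (left) and MWA over SPA (right), 1 array per fraction; points are ratios with the error of the scanner software, arrowheads are lower bounds, and the dotted line marks 5-fold. Probes of the same gene lie close together for Abhd5, while the Lipe probes lie apart in MWA over SPA, at 3.97 and 6.33.

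The rise from SVC to MWA was split differently by SPA in the 5 genes that were well above background on all 3 arrays. Over the whole span, the brightest probes of Pnpla2, Lipe, Mgll and G0s2 gave 51.7-fold, 64.9-fold, 45.5-fold and 53.7-fold, whereas the RefSeq probe of Lipe gave at least 340-fold. At the brightest probes and on the log2 scale, SPA had covered 49.8% of the rise of G0s2, 34.1% of that of Lipe, 30.4% of that of Pnpla2 and 11.98% of that of Mgll. The share of Lipe holds for its clone probe, as the RefSeq probe has only bounds against SVC, at least 2.08 of at least 8.41. With the normexp correction the clone probe gave 1.11 of 4.61, so the place of Lipe above Pnpla2 was not settled. G0s2 gave 2.18 of 4.94 with that correction. At the other Mgll probe the share was 0.066%, and for Abhd5 it was 28.1% at its brightest probe and 20.6% and 29.6% at the others.

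**Figure D3:**
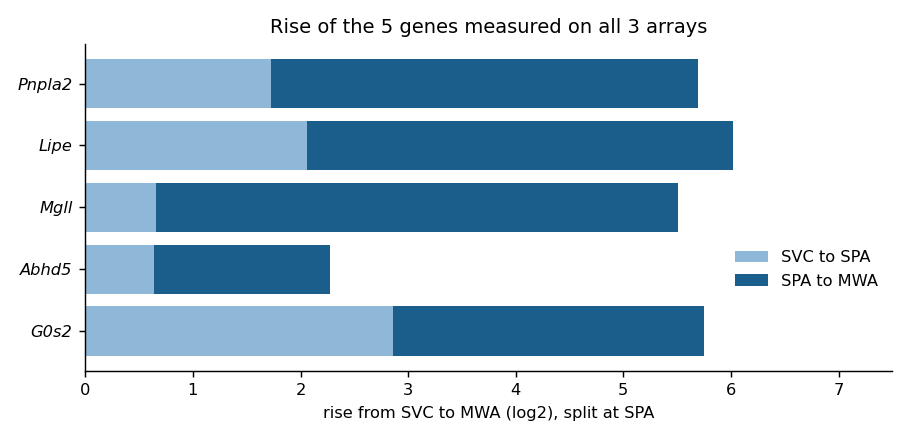
Log2 ratio of MWA over SVC at the brightest probe of each of the 5 genes well above background on all 3 arrays, as a bar from 0 that is split where SPA lies (light, SVC to SPA; dark, SPA to MWA). G0s2 is split near its middle and Mgll close to its start, and the bar of Abhd5 is the shortest.

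The enzyme PNPLA2 and its inhibitor and coactivator were then set side by side by their ratios. From SVC to SPA, G0s2 rose more than Pnpla2, by 1.13 on the log2 scale (error 0.29). From SPA to MWA the order was turned, with G0s2 rising less than Pnpla2 (difference -1.08, error 0.29). Over the whole span the genes thus differed by 0.06 (error 0.29), less than the error. The normexp correction kept the order in each step, with 2.18 and then 2.76 for G0s2 and 1.65 and then 3.94 for Pnpla2. Over the whole span it gave 4.94 for G0s2 and 5.60 for Pnpla2, so their likeness there was not settled. Abhd5 rose less than Pnpla2 in both steps, by a difference of -1.09 and then -2.33 (error 0.29 each), and less than G0s2, which exceeded it by 2.22 and 1.25. Lipe at its clone probe and Pnpla2 rose alike from SPA to MWA (difference 0.00, error 0.29), though with the normexp correction they rose by 3.50 and 3.94. Their difference of 0.33 from SVC to SPA was close to its error of 0.32.

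Genes of other cell types moved with the fractions. The summed signal of the adipocyte markers Adipoq, Cfd, Retn and Lep, in units of each array's 75th percentile, came to 0.834 for SVC, where Adipoq was not well above background, and to 24.4 for SPA and 1477 for MWA. In SPA over SVC, Adipoq was at least 91.6-fold, Cfd 52.6-fold and Retn 38.5-fold higher, but Lep only 1.19-fold. The paper lists Lep as 5 times higher in SPA than in SVC, and its real-time PCR also placed SPA above SVC. The 4 erythrocyte markers summed to 0.372, 0.411 and 655 in SVC, SPA and MWA, with Alas2 not well above background in SVC and SPA. The 5 endothelial markers summed to 2.09, 2.34 and 27.4, the 5 mesothelial markers to 19.1, 5.63 and 19.4, and the 8 fibroblast and progenitor markers to 280, 156 and 431. Of the latter, Dcn and Col3a1 were 3.90-fold and 7.32-fold higher in MWA over SPA, while Pdgfra and Pdgfrb had log2 ratios of -2.05 and -1.42. The 8 macrophage markers, all well above background on each array, summed to 536, 590 and 190, and they went both ways. Lyz2, Cd68, Adgre1, Csf1r and Ptprc had log2 ratios of -1.87, -3.10, -1.96, -0.40 and -0.20 in MWA over SPA, while C1qa, C1qb and Mrc1 were 11.3-fold, 12.3-fold and 1.73-fold higher. Of 5 lymphocyte markers, 1, 2 and 4 were well above background, with sums of 3.49, 3.73 and 4.82. The part of these cell types in the ratios of the lipolysis genes was not tested. In such bulk samples, fewer cells of a type and less RNA per cell cannot be told apart.

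The wider pathway was read in 68 other genes in 6 lists. Of those with a ratio, 5 of 61 were at least 5-fold higher and 0 lower in SPA over SVC, against 0.32% and 0.351% of all genes. In MWA over SPA, 23 of 65 were higher and 3 lower, against 5.47% and 3.97% of all genes, so the share that was lower was near the background. Their median log2 ratio was 0.38 and 1.60, beside 1.89 and 3.96 for the 6 genes above. In MWA over SVC, 29 of 64 were higher and 2 lower, against 5.72% and 3.96% of all genes. The share that was lower was again near the background.

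Among the patatin-like relatives of PNPLA2 and PNPLA3, which share their catalytic fold, 0 of 5 reached 5-fold in any comparison, which at background shares of 0.32% to 5.72% says little about them. Pnpla8, the mitochondrial phospholipase of the family, had the largest measured ratio in MWA over SPA, 3.16-fold, and the level of Pnpla7 was 0.34 lower in MWA than in SPA (log2 ratio -0.34). Pnpla1, whose SPA signal was not well above background, was at least 4.90-fold higher in MWA. Of the other neutral lipid hydrolases, 2 of 11 were at least 5-fold higher and 2 lower in MWA over SPA. The shares over all genes were 5.47% and 3.97%. In SPA over SVC 0 of 9 passed, where 0.32% of all genes were higher and 0.351% lower. Lpl, which the paper lists as 5 times higher in SPA than in SVC, was 2.49-fold higher here at its brightest probe. The carboxylesterase genes Ces1d and Ces1f were higher in MWA, at least 944-fold and 135-fold. The SPA level of Ces1f (-4.02) was near the lowest well above background (-5.14), which limits its fold. Lower in MWA were Lipa, the acid lipase of the lysosome, by a log2 ratio of -3.44, and Nceh1, the cholesteryl ester hydrolase of macrophages, by -3.84. The macrophage markers went both ways in the same comparison, as given above, and the part of macrophages in these ratios was not tested.

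The proteins of the droplet surface decide whether the lipases reach their substrate. Of 11 such genes, 3 passed 5-fold upward in SPA over SVC and 5 in MWA over SPA, and 0 downward. Over all genes, 0.32% and 5.47% passed upward, and 0.351% and 3.97% downward. Plin1, which holds ABHD5 at the droplet until the hormone signal arrives, was at least 57.9-fold up in SPA over SVC, and 35.3-fold up in MWA over SPA. Plin4 (46.1-fold, then 37.8-fold) and Cidec (60.3-fold, then 112-fold), which favours large droplets, also passed in both steps. Plin5, which binds both PNPLA2 and ABHD5, rose 124-fold from SPA to MWA, and Cidea 41.4-fold. Their SPA levels (-4.29 and -4.10) were near the lowest well above background (-5.14), which limits these folds. Plin2 and Plin3, the perilipins found in most cells, went the other way from SPA to MWA, with log2 ratios of -1.09 and -1.14.

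Hormones reach the lipases through cyclic AMP and protein kinase A. Of 19 genes of this signal with a ratio in SPA over SVC, 1 was at least 5-fold higher, the beta-3 adrenergic receptor Adrb3, at least 24.9-fold. Over all genes, 0.32% were at least 5-fold higher there. In MWA over SPA 8 of 21 were higher and 0 lower, against 5.47% and 3.97% of all genes. Among the 8 were Adrb3 (71.1-fold) and Adrb1 (at least 8.67-fold), which start the signal. Adora1 (126-fold), Hcar1 (14.1-fold), Gnai1 (17.1-fold) and Pde3b (23.9-fold), which restrain it, also passed. The SPA levels of Adora1 (-4.45) and Hcar1 (-4.50) were near the lowest well above background (-5.14), which limits their folds. The kinase subunits differed among themselves, with a log2 ratio of MWA over SPA of 2.77 for Prkar2b, 0.71 for Prkaca and -1.04 for Prkar1a. Npr3, the clearance receptor of the natriuretic peptides, rose 164-fold.

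Of the genes that carry or use the products, Fabp4, the fatty acid carrier of adipocytes, was the single gene of 8 past 5-fold in SPA over SVC (7.22-fold). Over all genes, 0.32% passed upward there. The paper also lists Aqp7 as 5 times higher in SPA than in SVC. Real-time PCR in the paper ordered this gene the same way. By flow cytometry, the paper found hardly any cells positive for both AQP7 and ADRB3 in SVC, but detected them in SPA. Here the brightest Aqp7 probe gave a ratio of 1.31-fold for SPA over SVC, from 1 array per fraction. In MWA over SPA, 3 of 8 passed, against 5.47% of all genes. These 3 were Fabp4 (19.8-fold), Acsl1 (19.7-fold), which activates fatty acids, and Aqp7 (13.1-fold), the glycerol channel. Of 9 transcription factors known to act on lipase genes or on the adipocyte program, 0 passed in SPA over SVC, where 0.32% of all genes did, and Pparg was 2.90-fold higher. In MWA over SPA 5 were at least 5-fold higher, which were Pparg (5.88-fold), Foxo1 (5.63-fold), Nr1h3 (5.34-fold), Irf4 (24.1-fold) and Egr1 (30.5-fold). The factor Snai1 was lower (log2 ratio -2.44). Over all genes, 5.47% were higher and 3.97% lower. Egr1 and Snai1 are both known as repressors of Pnpla2.

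**Figure D4:**
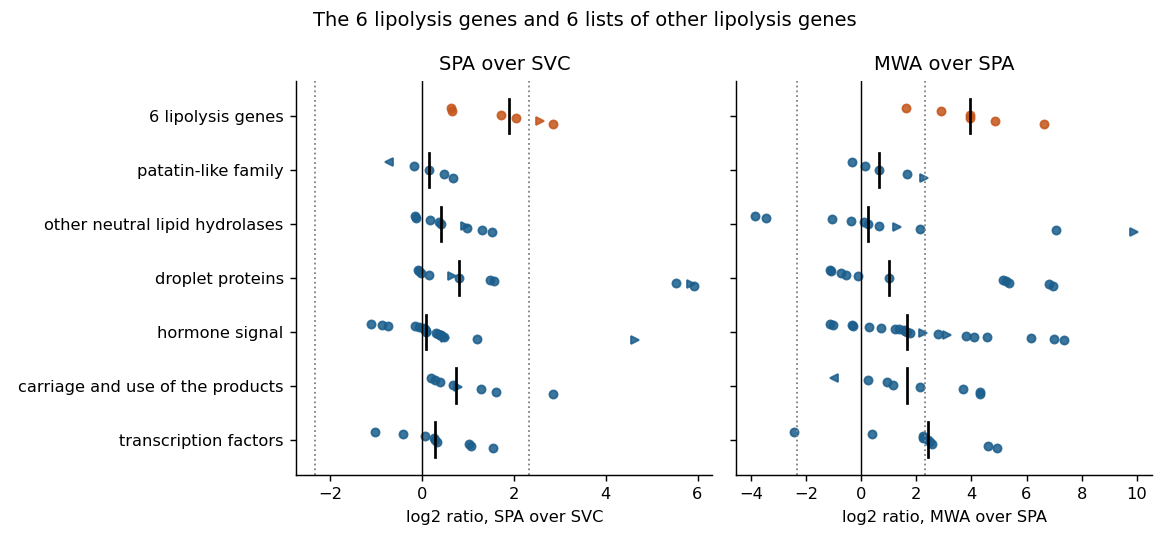
Log2 ratios of the 6 lipolysis genes (orange) and of the genes in 6 further lists (blue) in SPA over SVC (left) and MWA over SPA (right), 1 array per fraction; each point is a gene at its brightest probe, arrowheads are bounds, black bars are medians over each list and dotted lines mark 5-fold in either direction. The medians of the 6 lipolysis genes, 1.89 and 3.96, are the highest of the 7 in both panels.

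Genes of other function also ran in parallel with the lipolysis genes. Likeness was measured as the root mean square of the difference between the levels of 2 genes over the 3 arrays, after subtracting each gene's mean, among 19970 genes well above background on all arrays. Nearest to Pnpla2 was Reep6 (0.0028), then Gimap4 (0.095) and Saa2 (0.126). Among the 3 genes nearest to Lipe were Reep6 (0.153) and Pnpla2 itself (0.155). Nearest to Mgll were Arxes1 (0.067), C4b (0.085), a complement gene, and Slc36a2 (0.086). Abhd5 lay nearest to AK089569 (0.0046), H2-Bl (0.0095) and H2-Q10 (0.015), the latter being genes of the major histocompatibility complex. G0s2 lay nearest to Igfbp5 (0.183), Ppp1r3c (0.276) and Atp1b2 (0.282). Pnpla3 was left out for its dim signal in SVC, and with 3 arrays such a likeness is a description of these arrays.

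Since the genes moved together, the RefSeq promoters of GRCm38.p6, 250 bases before to 50 after each start, were read for letters bound by factors of adipocytes or of the hormone signal. All 6 genes had an entry, with 8 windows in all. The motifs were searched on both strands, and were AGGTCA (nuclear receptors), CACGTG (E-box), TGACGTCA (cyclic AMP response), GTAAACA (forkhead factors), TATAAA, and the direct repeat of AGGTCA with 1 base between its copies (DR1), which holds AGGTCA within it. For the genes on the plus strand with a match to the nuclear receptor, E-box or cyclic AMP motif, the 100 bases that end with the match are shown, with the match in capitals.
Pnpla3, chr15:84167678-84167777: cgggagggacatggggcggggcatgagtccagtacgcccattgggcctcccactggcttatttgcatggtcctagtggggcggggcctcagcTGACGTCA
Mgll, chr6:88724274-88724373: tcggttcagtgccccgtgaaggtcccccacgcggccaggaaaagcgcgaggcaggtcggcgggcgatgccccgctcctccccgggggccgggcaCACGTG
Abhd5, chr9:122351453-122351552: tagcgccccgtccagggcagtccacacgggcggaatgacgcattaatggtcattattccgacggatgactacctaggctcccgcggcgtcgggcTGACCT
TGACGTCA was found in Pnpla3 alone, at -46 from the start, and in 1.79% of the 32851 windows of all genes. CACGTG was found in Mgll at -44 and in Lipe at -155, and in 7.15% of all windows. AGGTCA was found in Abhd5 at -69 on the opposite strand, where it reads TGACCT, and in 16.3% of all windows. GTAAACA was found in Mgll at -241 and in the other Lipe window at -119, and in 3.65% of all windows. No window of the 6 genes held the DR1 repeat (0.0396% of all windows) or TATAAA (13.6%), and the windows of Pnpla2 and G0s2 held none of these letters. The match is a description of the window and not of binding, and the arrays do not bear on it.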

How the data were processed

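Total RNA (50 ng) of SVC, SPA and MWA was labeled with Cy3 and each was hybridized to 1 Agilent SurePrint G3 array, all on 1 slide and in 1 scan. The authors deposited, per spot, the intensity from Agilent Feature Extraction 10.7.3.1, background-subtracted and detrended, and a ratio of it to 1 constant per array. The paper names GeneSpring GX, whose settings are not given in the sources used here. Control spots and outlying spots (75, 98 and 129 in SVC, SPA and MWA) were left out, and each array, with 58.6%, 61.4% and 61.3% of its 59305 spots well above background, was scaled to its 75th percentile. Repeated spots were averaged, and a gene was read at its brightest probe by mean level. A gene passed with a fold or bound of 5 or more and a brighter signal well above background. Genes were named as members, as members of the 6 pathway lists or 7 marker lists, or as the 3 most like genes of a member, of which 1 is not reported here. Members and lists were chosen with earlier results of these data known. Groups came from the labels, which call MWA mature adipocytes. The alternatives were the normexp correction (offset 50, limma 3.58.1), quantile normalization, another percentile, the deposited ratios, other filters on dim probes, other probe rules and a 2-fold limit. The reading was tested on simulated data. Python 3.11.15, numpy 2.4.6, pandas 2.3.3 and R 4.3.3 were used. Gene names are those of the arrays, updated through RefSeq for the 32993 probes whose accession was found there.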

Additional observations from a re-analysis of the deposited data

How the results depend on the processing

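Of the 30 recomputed counts of members past the fold limit, 26 stayed within 1.5 times the reported count. The other 4 concern SPA over SVC, where 2 of 6 genes passed. The count there was 0 with the normexp correction, 1 where probes had to be well above background on both arrays, 1 with each gene's median probe value, and 4 with a limit of 2-fold. In MWA over SPA it was 5 or 6, and in MWA over SVC between 4 and 6. Of 160 recomputed member ratios, 134 moved by less than their error, 26 moved by more and 0 changed sign, and of 162 counts over the pathway lists 20 moved. Many of the 134 could not move. The filters on dim probes leave a ratio as it is where both arrays are well above background. The probe rules cannot alter Pnpla2 and G0s2, which have a single probe. The deposited ratios differ from the signals by 1 constant per array. Among the larger moves were those of Lipe, whose log2 ratio in MWA over SPA ran from 3.50 to 6.33, and of Pnpla3, whose log2 ratio in SPA over SVC ran from 1.05 to 2.82. The reading at probes annotated to a RefSeq transcript was chosen after seeing the data. Pnpla3 has no ratio against SVC where both arrays must be well above background. The normexp correction adds its offset to every signal, which shrinks ratios of dim probes by construction, and the SVC signals of G0s2, Lipe and Pnpla3 at their brightest probes, from 11.6 to 71.7, are near the background, which limits their ratios to SVC. No paired analysis was possible because each group holds 1 array, and no replicate could be left out.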
